A study of Mus musculus with 16 samples.

Results

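The 10 genes described here form the growth hormone and Stat5 axis of the liver: Ghr, Igf1, Igfals, Stat5a, Stat5b, Socs2, Cish, Bcl6, Cux2 and Hsd3b5. They were chosen by gene symbol, and all 10 were among the 19938 genes measured. Each is represented by the probe set with the highest mean over the arrays, so the mean level was used in the choice of probe set. The diet differences of Hsd3b5 and Cux2 were known when the list was drawn up, and differences of these 2 genes between groups are therefore described with no test, while those of the other 8 were tested. Correlations between animals of the same group were tested for all of them.

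The study measured liver RNA of adult mice on 16 arrays, 1 per animal, in 4 groups of 4. The wild-type animals carry the genotype label Gli1_WT, although the series text speaks of Gli2 only, and the heterozygous animals carry 1 null copy of Gli2 and the label Gli2_Het (Het in the text). In each genotype 4 animals ate a control diet and 4 a high-fat diet, over 12 weeks. Gli2 is a transcription factor of the hedgehog pathway. No promoter or recombinase that would limit the allele to a cell type is named. The sources used here do not give strain, sex, diet composition, or age beyond adult. No treatment with growth hormone was part of the design. Samples were bulk liver, so fewer cells of a type and less RNA per cell cannot be told apart.

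Growth hormone from the pituitary binds its receptor on hepatocytes, activates the kinase Jak2 and leads to phosphorylation of Stat5a and Stat5b, which enter the nucleus and switch on target genes. Igf1 and Igfals carry the hormone's effect on growth into the blood, while Socs2 and Cish are induced by Stat5 and dampen the signal. In rodents the hormone is released in pulses in males and more continuously in females, and this pattern sets much of the sex difference in liver gene expression. Bcl6, a repressor that is higher in males, and Cux2, a factor that is higher in females, take part in that difference, and Hsd3b5, a steroid-metabolising enzyme, is a classical male-biased product of pulsatile signalling. Phosphorylation of Stat5 was not measured, and transcript levels do not show it.

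The arrays matched liver, and 1 of them stood apart. The 8 hepatocyte markers, Alb, Ttr and Apoa1 among them, had an average level of 13.41 to 13.63 on the log2 scale over the 16 arrays. The pituitary genes Gh, Prl, Tshb, Pomc and Ghrhr had medians of 7.54, 5.71, 5.93, 7.62 and 8.85. The female transcript Xist read 12.60 to 12.94 on every array, and the Y-linked Uty and Kdm5d read at most 5.65 and 6.62. By these transcripts all 16 animals read as female, so the levels of male-biased genes given below are levels in female liver. Array 2 of the heterozygous control group, Het_control 2, correlated with the others at 0.961 to 0.979 across genes, against 0.990 to 0.997 among the other 15. That array had the lowest average of the 16 for hepatocyte, macrophage and endothelial markers (13.41, 9.73 and 9.78). It had the highest for lymphocyte, cholangiocyte, pancreas, adipocyte and pituitary markers (7.55, 7.77, 8.18, 7.88 and 7.47). It was at neither end for stellate or gut and gallbladder markers. It is kept in all values below, and values without it are given where they matter.

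Stat5 binds palindromic sites of the form TTCNNNGAA, and Bcl6 recognises an overlapping motif. Both strands read the same for this palindrome. Windows from 250 bases before to 50 bases after an annotated gene start were available from RefSeq (GRCm38.p6) for 9 of the 10 genes, in 16 windows. The motif was present in 5 of the 16 windows, belonging to 3 genes, Cish, Bcl6 and Igfals; over the table it was present in 8.30% of 32851 windows and in at least 1 window of 9.55% of 27025 genes. The stretches are printed because Cish and Bcl6 are the members that lay far apart in opposite directions in the same animals, as described below, and because Cish holds a pair of motifs close together. The motif is in capitals, and each stretch is 30 bases read 5′ to 3′ along the gene's strand.
Cish, chr9:107296654-107296683, plus strand: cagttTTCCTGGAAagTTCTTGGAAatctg
Bcl6, chr16:23988951-23988980, minus strand: agcaaattagTTCTCAGAAttccagaggcc
Bcl6, chr16:23981432-23981461, minus strand: aggccgcggcTTCCTGGAAagttacttctc
Bcl6, chr16:23981386-23981415, minus strand: ggcaggagtgTTCTGTGAAatccttagagc
Bcl6, chr16:23981352-23981381, minus strand: atcgactacgTTCCGGGAAtgagagggctg
Igfals, chr17:24877598-24877627, plus strand: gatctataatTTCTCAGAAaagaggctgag
Igfals, chr17:24878163-24878192, plus strand: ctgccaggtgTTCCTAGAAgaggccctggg
These are matches of letters in short windows, and occupancy by any factor was not measured. Bcl6 had motifs near both of its annotated starts, 1 in one window and 3 in the other.

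**Figure D1:**
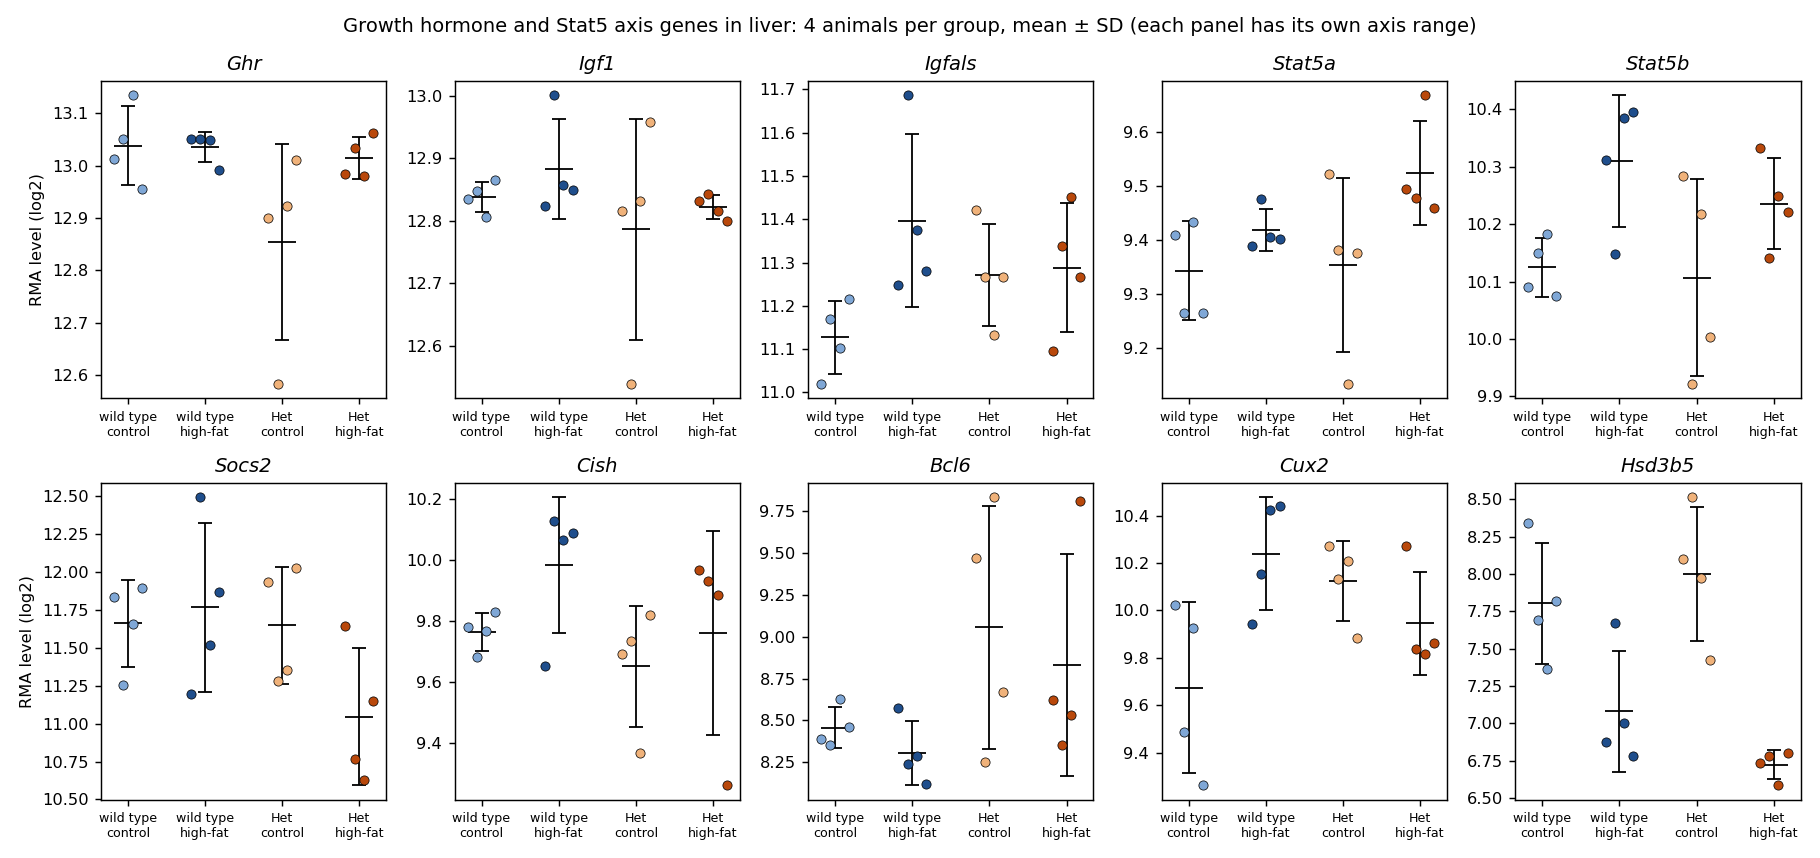
RMA level (log2, vertical axis, a separate range per panel) of each of the 10 genes in the 4 groups, with a point per animal and the mean ± SD of 4 animals. The heterozygous high-fat points of Hsd3b5, from 6.58 to 6.80, lie below all control-diet points, and 3 heterozygous animals stand apart for Bcl6, at 9.47 to 9.83.

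Hsd3b5 was the member with the largest diet differences in value, lower on the high-fat diet in both genotypes, and Cux2 was higher on that diet in wild type. Socs2 had its lowest mean among high-fat heterozygotes, and Bcl6 was high in 3 heterozygous animals. Ghr, Igf1, Stat5a and Stat5b differed by at most 0.19 between groups that were compared. No difference of the 8 tested genes passed in any comparison. By diet in wild type the test called 0 of the 8, beside 0% of all 19938 genes, and 2 of the 8 had an unadjusted p under 0.05. In heterozygotes 0 of the 8 were called, beside 2.22% of all genes, and again 2 had an unadjusted p under 0.05. Over both genotypes it called 0 of the 8, beside 1.86% of all genes, and the count at an unadjusted p under 0.05 was also 2. The median difference of the 8 was 0.09 in wild type and 0.07 in heterozygotes, against -0.01 and -0.05 over all genes. Without Het_control 2 the median in heterozygotes was 0.04, against -0.02 over all genes. Genotype comparisons also called 0 of the 8, with 1 at an unadjusted p under 0.05 in each. The share of all genes called was 0% between the control-diet groups, 0.00502% between the high-fat groups and 0.00502% over both diets. The test of a different diet response in the 2 genotypes, the interaction, called 0 of the 8, beside 0% of all genes, with 0 of the 8 at an unadjusted p under 0.05. Over all genes the share at an unadjusted p under 0.05 was 6.43% by diet in wild type, 31.6% in heterozygotes and 26.9% over both genotypes. By genotype it was 15.7% on control diet, 3.57% under high-fat feeding and 7.76% over both diets, and for the interaction 8.13%. Complete separation of 2 groups was seen for Igfals by diet in wild type, where 8.5% of all genes separated, and for Hsd3b5 by diet in heterozygotes, where 13.7% did. By genotype 0 of the 10 separated, beside 6.12% of all genes on control diet and 3.75% under high-fat feeding. All calls are at an adjusted p under 0.05 from limma over all genes, and limma was the only tool run.

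**Figure D2:**
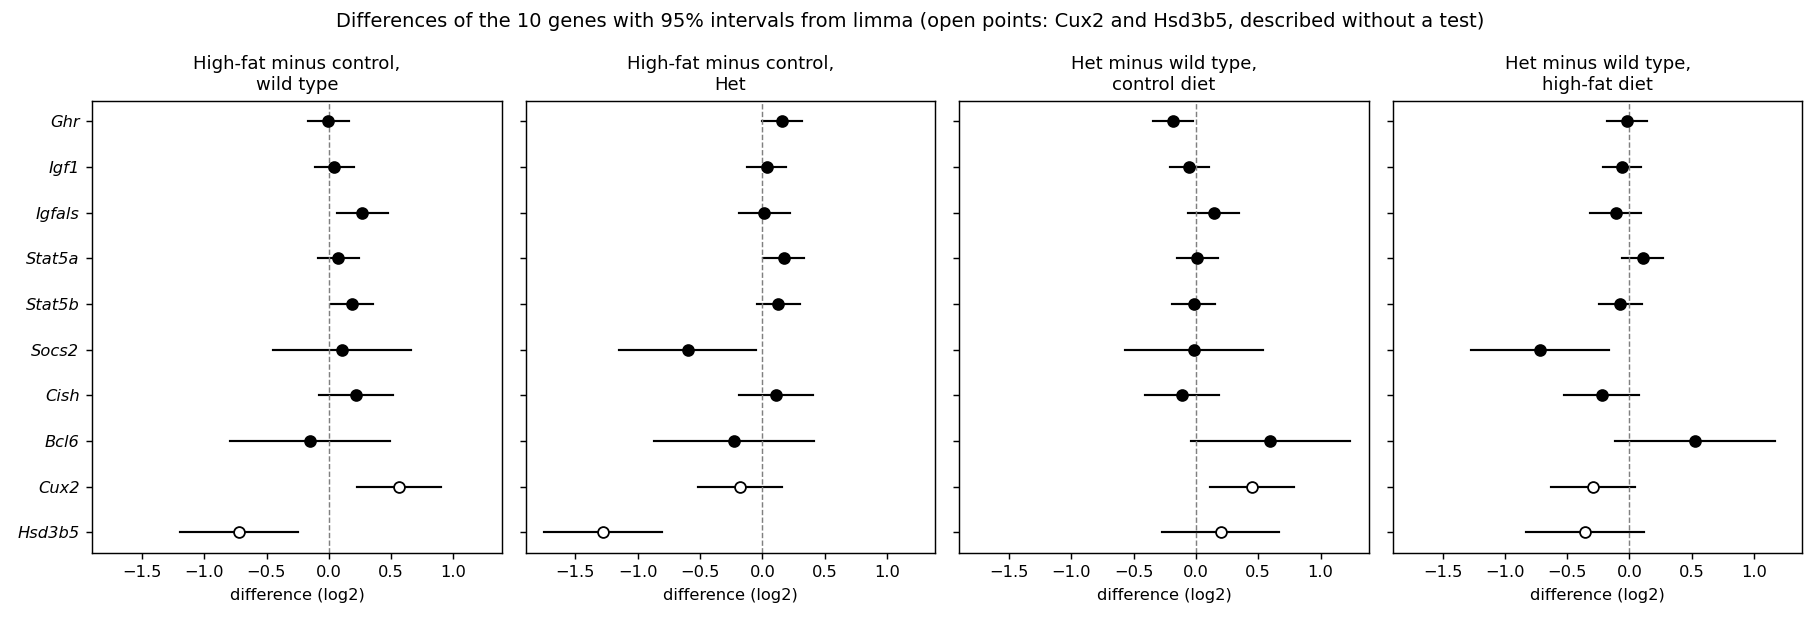
Differences of the 10 genes on the log2 scale (horizontal axis) in the 4 comparisons of 2 groups, with unadjusted 95% intervals from limma. Most points lie within 0.3 of 0 and the wide intervals belong to Socs2, Bcl6 and Hsd3b5; open points mark Cux2 and Hsd3b5, which were not tested.

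The receptor gene Ghr varied little between animals, apart from 1 array. It read 12.96 to 13.13 in wild type on control diet, 12.99 to 13.05 on high-fat diet, 12.58 to 13.01 in heterozygotes on control diet and 12.98 to 13.06 on high-fat diet. The lowest reading, 12.58, was that of Het_control 2, and the other 15 arrays lay at 12.90 or above. The diet difference was -0.003 in wild type (95% interval -0.16 to 0.16; limma adjusted p = 0.998) and 0.16 in heterozygotes (-0.001 to 0.32; adjusted p = 0.160), or 0.07 without Het_control 2. The heterozygous control group was 0.18 below wild type in value (difference -0.18, interval -0.35 to -0.02; adjusted p = 0.300), or -0.09 without that array. Both differences thus rested in large part on 1 array.

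Stat5a and Stat5b, the 2 closely related transcription factors that relay the signal, had diet differences of at most 0.19. Stat5a read 9.34 ± 0.09 (SD, n = 4) in wild type on the control diet and 9.42 ± 0.04 on the high-fat diet, and 9.35 ± 0.16 and 9.52 ± 0.10 in heterozygotes in the same order. Its diet difference was 0.17 in heterozygotes (interval 0.01 to 0.34; limma adjusted p = 0.147) and 0.07 in wild type (adjusted p = 0.944). Stat5b, the form that predominates in male-biased liver expression, read 10.12 ± 0.05 and 10.31 ± 0.11 in wild type on control and high-fat diet, and 10.11 ± 0.17 and 10.24 ± 0.08 in heterozygotes. Its diet difference was 0.19 in wild type (interval 0.01 to 0.36; adjusted p = 0.742) and 0.13 in heterozygotes (adjusted p = 0.257), or 0.07 without Het_control 2. Both genes were higher in value on the high-fat diet in both genotypes, and the groups overlapped in each comparison. Over both genotypes the diet differences were 0.12 (adjusted p = 0.172) and 0.16 (adjusted p = 0.126). The genes share long stretches of sequence, and how far their probes are read by each other's transcript was not tested.

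Igf1, the growth factor that the liver secretes in response to growth hormone, had group means within 0.10 of each other. Its levels were 12.81 to 12.86 in wild type on control diet, 12.82 to 13.0003 on high-fat diet, 12.54 to 12.96 in heterozygotes on control diet and 12.80 to 12.84 on high-fat diet. Het_control 2 gave the lowest of these, as it did for Ghr, and without it the levels spanned 12.80 to 13.0003. Diet differences were 0.04 in wild type (interval -0.11 to 0.20; limma adjusted p = 0.959) and 0.04 in heterozygotes (-0.12 to 0.19; adjusted p = 0.726). Genotype differences were -0.05 on control diet (-0.21 to 0.10) and -0.06 on high-fat diet (-0.22 to 0.10). The intervals of these 4 differences all lay between -0.22 and 0.20.

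Igfals encodes the acid-labile subunit, which holds Igf1 in a large complex in plasma. In wild type it read 11.02, 11.17, 11.10 and 11.22 on the control diet and 11.25, 11.69, 11.37 and 11.28 on the high-fat diet. The 2 groups did not overlap. The difference of 0.27 (SE 0.10, interval 0.06 to 0.48) did not pass (adjusted p = 0.610), and it was 0.17 without WT_HFD 2, whose 11.69 was the highest of the 16 readings. In heterozygotes the groups were at 11.27 ± 0.12 and 11.29 ± 0.15 (SD, n = 4), with a diet difference of 0.02 (limma adjusted p = 0.910), and the difference between the 2 responses was -0.25 (SE 0.14, adjusted p = 0.626).

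Socs2, a feedback inhibitor that targets the growth hormone receptor complex for degradation, varied widely between animals of every group. The wild-type readings were 11.84, 11.25, 11.66 and 11.89 on the control diet and 11.19, 12.49, 11.52 and 11.86 on the high-fat diet. The heterozygous readings were 11.93, 11.28, 11.35 and 12.02 on the control diet and 11.64, 10.77, 10.63 and 11.15 on the high-fat diet. The 3 lowest of all 16 readings, 10.63, 10.77 and 11.15, were heterozygous animals on the high-fat diet, while the other animal of that group, at 11.64, lay inside the range of the other groups. The heterozygous diet difference was -0.60 (SE 0.26, interval -1.15 to -0.05; limma adjusted p = 0.137) and the genotype difference on high-fat diet -0.72 (SE 0.26, interval -1.27 to -0.17; adjusted p = 0.9996). The first was -0.80 without Het_HFD 1 and -0.46 without Het_HFD 3, and the second -0.92 without Het_HFD 1 and -0.48 without WT_HFD 2. In wild type the diet difference was 0.11 (interval -0.45 to 0.66), and the difference between the responses was -0.71 (SE 0.37, adjusted p = 0.620).

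Socs2 is the only member with a second probe set under its own symbol. That probe set had a mean of 9.61 against 11.53, and the 2 correlated at r = 0.983 across the 16 arrays. It gave a diet difference of -0.48 in heterozygotes and 0.13 in wild type. The between-animal pattern was thus nearly the same in both probe sets.

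Cish encodes a related inhibitor whose gene carries the paired motifs printed above. Its readings in wild type were 9.78, 9.68, 9.77 and 9.83 on the control diet and 9.65, 10.13, 10.07 and 10.09 on the high-fat diet. In heterozygotes they were 9.69, 9.73, 9.37 and 9.82 on the control diet and 9.97, 9.93, 9.89 and 9.26 on the high-fat diet. On the high-fat diet 6 of 8 animals lay above every control-diet animal, and 1 animal of each genotype lay low, at 9.65 and 9.26. The diet difference was 0.22 in wild type (SE 0.14, limma adjusted p = 0.882) and 0.11 in heterozygotes (SE 0.14, adjusted p = 0.577). Without WT_HFD 1 the first was 0.33, and without Het_HFD 4 the second was 0.27, and neither passed (limma adjusted p = 0.848 and 0.200).

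Bcl6, the repressor whose motif overlaps that of Stat5, had the largest SD between animals of the same group among the 10 genes. The wild-type animals read 8.39, 8.35, 8.63 and 8.46 on the control diet and 8.57, 8.24, 8.29 and 8.12 on the high-fat diet. The heterozygous animals read 9.47, 8.25, 9.83 and 8.67 on the control diet and 8.62, 8.36, 8.53 and 9.81 on the high-fat diet. Thus 3 of the 8 heterozygous animals lay between 9.47 and 9.83, and the other 13 animals of the study between 8.12 and 8.67. The genotype difference was 0.60 on control diet (SE 0.30, limma adjusted p = 0.326), 0.52 on high-fat diet (SE 0.30, adjusted p = 0.9996) and 0.56 over both diets (SE 0.21, adjusted p = 0.573). On control diet it was 0.34 without Het_control 3 and 0.87 without Het_control 2, and on high-fat diet 0.20 without Het_HFD 4. The diet differences were -0.15 in wild type and -0.23 in heterozygotes (adjusted p = 0.967 and 0.587), and the latter was 0.03 without Het_control 3.

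The animals with high Bcl6 tended to be low for Cish, an observation made after the values were seen. The 2 lowest Cish readings of the study, 9.26 and 9.37, belonged to the animals with Bcl6 at 9.81 and 9.83, and the third animal, with Bcl6 at 9.47, had Cish at 9.69. Among the 45 pairs of the 10 genes, Cish and Bcl6 had the smallest permutation p. Pearson's r of deviations from the group mean was -0.80 over 16 animals (permutation p = 0.0063, adjusted p = 0.283). Spearman's rho was -0.75 (permutation p = 0.0098, adjusted p = 0.442). Neither passed after adjustment over the 45, and r was -0.88 without Het_control 2. Over the 13 animals of the lower Bcl6 set the correlation of deviations from the group mean was -0.42 (Pearson's r, permutation p = 0.312; Spearman's rho -0.08, permutation p = 0.835). Without Het_HFD 4 and Het_control 3, the 2 arrays farthest from the median of Cish, r was -0.36. The third animal, Het_control 1, lay 0.41 above its group mean for Bcl6 and 0.04 above it for Cish. The relation thus rests in large part on Het_HFD 4 and Het_control 3.

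**Figure D3:**
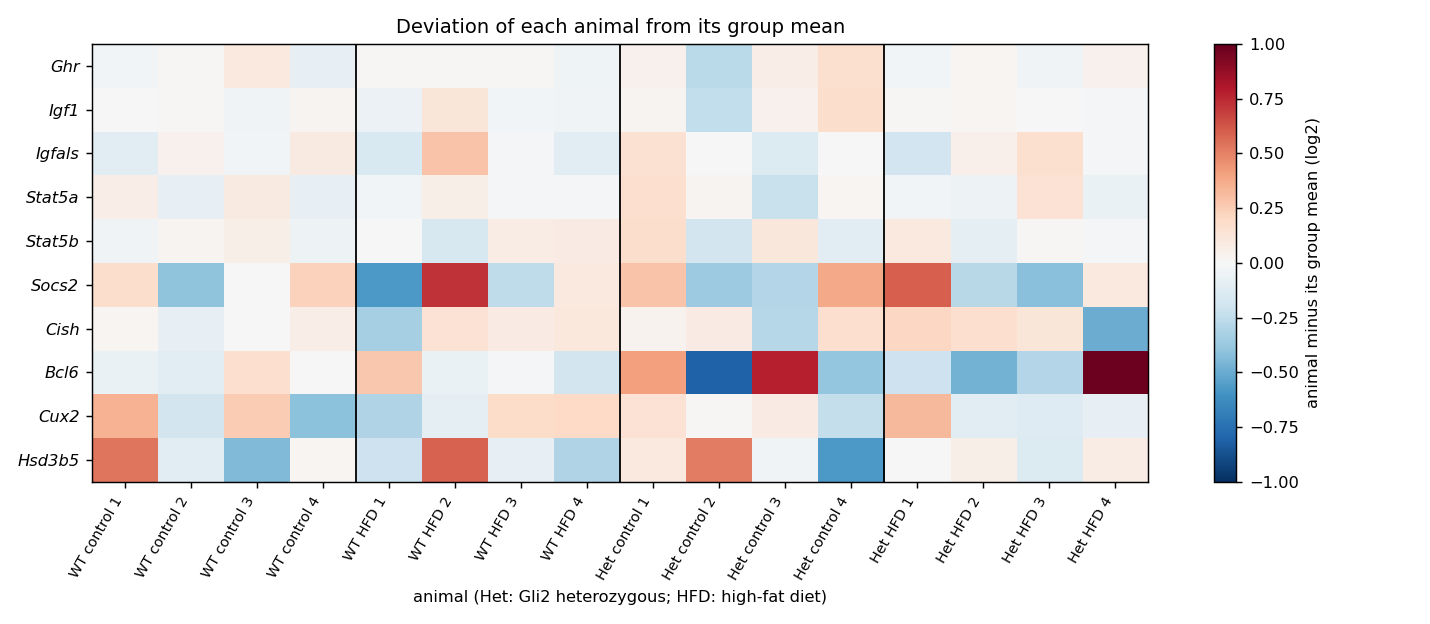
Each animal's level minus its group mean (log2, colour, from -1 to 1) for the 10 genes (rows) in the 16 animals (columns, grouped by genotype and diet). Socs2, Bcl6 and Hsd3b5 carry the strong colours, and the dark red cells of Bcl6 in Het_control 3 and Het_HFD 4 stand under blue cells of Cish.

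Cux2 is expressed in female liver and represses male-biased genes there. Wild-type animals read 10.02, 9.49, 9.93 and 9.26 without and 9.94, 10.15, 10.42 and 10.44 with high-fat feeding. In heterozygotes it read 10.27, 10.13, 10.21 and 9.88 on the control diet and 10.27, 9.84, 9.82 and 9.86 on the high-fat diet. The wild-type control group held the 2 lowest readings, 9.26 and 9.49, and the other 14 animals lay between 9.82 and 10.44. As a description, the diet difference was 0.57 in wild type (SE 0.16) and -0.18 in heterozygotes (SE 0.16), and the genotype difference was 0.45 on the control diet and -0.29 on the high-fat diet (SE 0.16 each). The wild-type value was 0.43 without WT_control 4 and 0.68 without WT_control 1.

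Hsd3b5 had the lowest readings on the high-fat diet. It read 8.34, 7.69, 7.37 and 7.82 in wild type on the control diet and 6.87, 7.67, 7.001 and 6.78 on the high-fat diet. In heterozygotes it read 8.10, 8.51, 7.97 and 7.43 on the control diet and 6.73, 6.78, 6.58 and 6.80 on the high-fat diet. The heterozygous groups did not overlap, while in wild type WT_HFD 2, at 7.67, lay inside the control range. As a description, the level was 2.43-fold lower on the high-fat diet in heterozygotes (-1.28, SE 0.22, or -1.11 without Het_control 2) and 1.65-fold lower in wild type (-0.72, SE 0.22). Whether the high-fat readings lie above the array's background is not known, since the deposited values hold no detection call. If they do not, these folds are lower bounds only where the control-diet signal is that of Hsd3b5 itself, which was not tested. The wild-type value was -0.92 without WT_HFD 2 and -0.54 without WT_control 1. The genotype difference was 0.20 between the control-diet groups and -0.36 between the high-fat groups (SE 0.22 each).

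The Hsd3b genes lie in a cluster of near-identical copies, so the reading of Hsd3b5 is uncertain where probes are shared. A pair of further probe sets list Hsd3b5 together with Hsd3b4 and Gm10681 and hold the same values as each other. They averaged 8.16 ± 0.11 and 7.76 ± 0.20 (SD, n = 4) in wild type on control and high-fat diet, and 8.36 ± 0.27 and 7.77 ± 0.13 in heterozygotes, in the direction of the probe set of Hsd3b5 alone. Of 5 other family members measured, 1 rose in heterozygotes on the high-fat diet: Hsd3b2, by 0.60 (SE 0.14, limma adjusted p = 0.0377), which no longer passed without Het_control 2 (0.52, adjusted p = 0.0703) or without each of 8 other arrays. Over all genes 1.5% were higher in this comparison. The median of the 5 was 0.22 in heterozygotes and 0.12 in wild type. Hsd3b3 read 0.36 in heterozygotes (limma adjusted p = 0.0946), or 0.21 without Het_control 2.

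The genes most like Hsd3b5 across the 16 arrays were Scap (Pearson's r = 0.914, Spearman's rho = 0.944), the sterol sensor that escorts Srebp, the fatty acid binding protein gene Fabp5 (0.908 and 0.897) and the Y-linked Uba1y (0.892 and 0.909), whose group means lay between 6.88 and 7.06. Within groups the r was 0.713, 0.686 and 0.630. Since all 16 animals read as female, the Uba1y reading cannot be taken as that gene's own transcript, and its source was not tested. The genes most like Igf1 were Nop16, Tmed2 and Fbxw2. Their r was 0.932, 0.928 and 0.927 over 16 arrays and 0.773, 0.764 and 0.776 without Het_control 2. These genes were picked as the highest of all genes measured, so no p is given.

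Animals of 1 group differed from each other more for some of the 10 genes than for others. The SD within groups was 0.50 for Bcl6, 0.43 for Socs2, 0.37 for Hsd3b5, 0.26 for Cux2 and 0.23 for Cish, at the 99.8, 99.5, 99.0, 94.7 and 91.7 percentile of all genes. It was 0.10 for Ghr and Igf1, 0.11 for Stat5a and Stat5b and 0.14 for Igfals, against a median of 0.13 over all genes. Without Het_control 2 the first 5 stood at the 97.5 percentile or above, and Ghr and Igf1 at the 5.24 and 6.90 percentile. Igfals then stood at the 87.5 percentile, with an SD of 0.15 against a median of 0.094, and Stat5a and Stat5b at the 67.3 and 56.6 percentile. The feedback genes Socs2 and Cish, the regulators Bcl6 and Cux2 and the enzyme gene Hsd3b5 were thus the variable ones between animals, and the receptor and Igf1 the steady ones. These percentiles are over genes of all levels, and Ghr and Igf1 were bright, with means of 12.99 and 12.83. Spread was not compared among genes of like level. The sources used here do not give the hour of sampling or the time since the last meal.

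**Figure D4:**
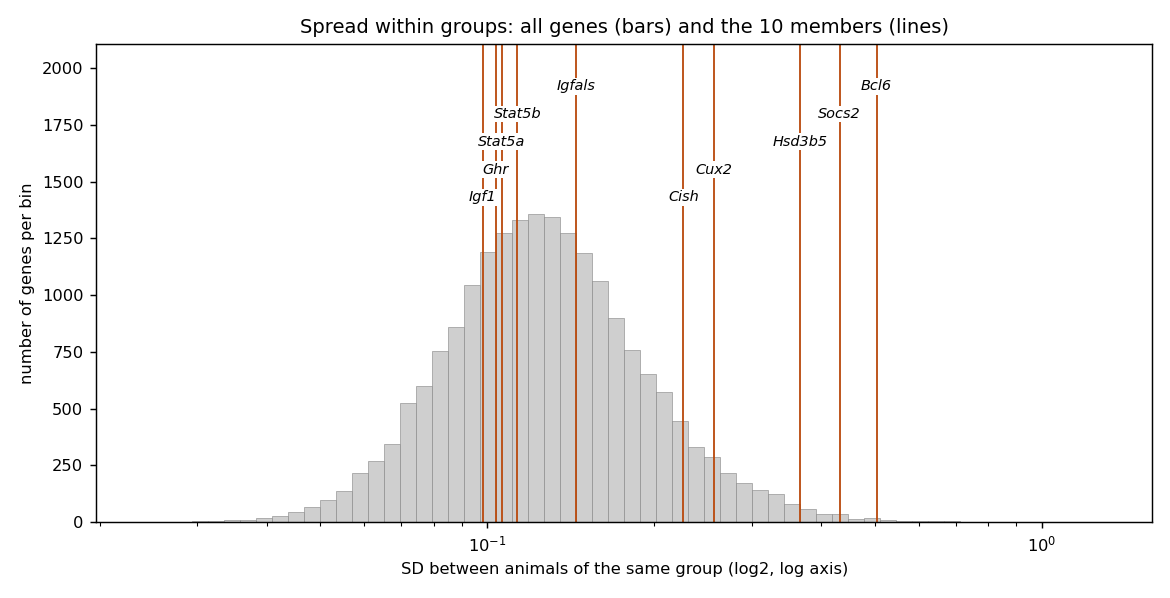
Number of genes (vertical axis) by SD between animals of the same group (horizontal axis, log2 units on a log scale), with a line for each of the 10 genes. Bcl6, Socs2 and Hsd3b5 lie in the right tail, at 0.50, 0.43 and 0.37, and Ghr and Igf1 left of the peak, near 0.10.

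No pair of members rose and fell together across animals beyond the threshold. Of 8 pairs examined on deviations from the group mean over 16 animals, 0 passed after adjustment over the 8. Igf1 and Socs2 had the smallest p (Pearson's r = 0.54, permutation p = 0.0195, adjusted 0.156; Spearman's rho = 0.58, permutation p = 0.0256, adjusted 0.205). Without the 2 arrays farthest from the median of Igf1 this r was 0.27. Igf1 and Ghr had r = 0.78 (permutation p = 0.0636, adjusted 0.254; rho 0.42, permutation p = 0.175, adjusted 0.349), but 0.17 without Het_control 2, the array low for both, so the relation rests on that array. Socs2 and Cish, both induced by Stat5, had r = 0.37 (permutation p = 0.248, adjusted 0.636; rho 0.41, permutation p = 0.149, adjusted 0.349), and r = 0.43 without the 2 arrays farthest from the median of Socs2. Igf1 and Igfals, which circulate in 1 complex, had r = 0.28 (permutation p = 0.318, adjusted 0.636; rho 0.42, permutation p = 0.113, adjusted 0.349), and 0.028 without the 2 farthest arrays. Socs2 and Hsd3b5 had r = 0.20 (permutation p = 0.511, adjusted 0.809; rho 0.32, permutation p = 0.275), and -0.23 without the 2 farthest. Hsd3b5 and Cux2 had r = 0.17 (permutation p = 0.607, adjusted 0.809; rho 0.19, permutation p = 0.548), and -0.090 without the 2 farthest. For Bcl6 the planned correlations over 16 animals were -0.10 with Hsd3b5 (permutation p = 0.796, adjusted 0.848; rho 0.065, permutation p = 0.835) and 0.046 with Cux2 (permutation p = 0.848; rho 0.068, permutation p = 0.782). The animals fall into 2 sets for this gene, and over the 13 of the lower set, a choice made after the values were seen, r was -0.56 with Hsd3b5 (permutation p = 0.196; rho -0.54, permutation p = 0.215) and -0.18 with Cux2 (permutation p = 0.560; rho -0.16, permutation p = 0.583).

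The lists of related genes compared here were drawn up with earlier results of these arrays known, so their counts are no independent evidence. Among other genes of growth hormone signalling, 2 of 19 measured fell on the high-fat diet in heterozygotes, beside 0.712% of all genes, and 0 rose. They were the leptin receptor gene Lepr, which also signals through Jak2 (-2.20, SE 0.32, limma adjusted p = 0.00811), and the growth factor receptor gene Egfr (-0.97, SE 0.15, adjusted p = 0.00811). Both passed with each of the 16 arrays left out in turn, and both fell over the 2 genotypes together (-1.91 and -0.59), beside 0.512% of all genes that were lower there. In wild type 0 of 19 were called, beside 0% of all genes, and 1 had an unadjusted p under 0.05, beside 6.43%. Lepr read -1.62 there (limma adjusted p = 0.205) and the hepatocyte factor Foxa2 0.13 (adjusted p = 0.879). By genotype on control diet 0 of 19 were called, beside 0% of all genes, and 1 had an unadjusted p under 0.05, beside 15.7%. Foxa2 was at -0.18 (limma adjusted p = 0.316) and the kinase gene Jak2 at -0.33 (adjusted p = 0.322). The list's median was -0.02 in wild type and -0.03 in heterozygotes by diet, close to the -0.01 and -0.05 of all genes.

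Of 13 insulin-like growth factors, receptors and binding proteins, 0 were called by diet within either genotype, beside 0% of all genes in wild type and 2.22% in heterozygotes. At an unadjusted p under 0.05 there were 1 in wild type and 7 in heterozygotes, beside 6.43% and 31.6% of all genes. In value 11 of the 13 were lower on the high-fat diet in wild type and 10 in heterozygotes, with medians of -0.12 and -0.14 against -0.01 and -0.05 over all genes. Without Het_control 2 the count in heterozygotes was 8 and the median -0.078, against -0.020 over all genes. Igfbp1, an Igf-binding protein that insulin suppresses, read -0.97 in wild type (SE 0.23, limma adjusted p = 0.281) and -0.77 in heterozygotes (adjusted p = 0.0680). Over both genotypes it fell by 0.87 on the log2 scale (SE 0.16, adjusted p = 0.0152), and it passed with each array left out in turn. It was the only 1 of the 13 called there, beside 0.512% of all genes that were lower. Other binding protein genes did not pass, with Igfbp2 at -0.34 in wild type (adjusted p = 0.8293) and Igfbp5 at 0.48 in heterozygotes (adjusted p = 0.0749).

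Lists of sex-biased liver genes, which stand downstream of the hormone's release pattern, held calls in heterozygotes in both directions. These lists were drawn up with earlier results of these arrays known, so their direction is no independent evidence. Of 28 male-biased genes 3 fell and 1 rose on the high-fat diet in heterozygotes, beside 0.712% and 1.5% of all genes, and without Het_control 2, 2 fell and 0 rose. The organic anion transporter gene Slco1a1 fell by 2.92 (SE 0.50, limma adjusted p = 0.0139) and passed with each array left out, as did Egfr, which is in this list too. Serpina12 (-0.97, adjusted p = 0.0372) and Hsd3b2, the gene that rose and the same as in the Hsd3b family above, were each lost in 9 of the 16 fits that left out 1 array, with adjusted p up to 0.113 and 0.118. The list's median was 0.02, against -0.05 over all genes, with 15 of 28 higher and 13 lower in value, while Hsd3b5 itself was lower in value. Over both genotypes 1 rose, Hsd3b2 by 0.44, and 2 fell, Slco1a1 (-1.99) and Egfr, beside 1.35% and 0.512% of all genes.

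Of 27 female-biased genes 5 rose and 2 fell in heterozygotes on the high-fat diet, beside 1.5% and 0.712% of all genes, and without Het_control 2, 3 rose and 2 fell. The cytochrome P450 gene Cyp3a16 rose by 1.60 (SE 0.31, limma adjusted p = 0.0222), the fatty acid translocase gene Cd36, which macrophages also express, by 1.44 (SE 0.26, adjusted p = 0.0185), Eci3 by 1.06 and Hao2 by 0.72. The sulfotransferase gene Sult3a1 fell by 1.498 on the log2 scale (adjusted p = 0.0372) and Spink1 by 0.39 (adjusted p = 0.0434). In value 23 of 27 were higher, with a median of 0.34 against -0.05 over all genes. Without Het_control 2, 19 of 27 were higher, with a median of 0.19 against -0.02 over all genes. Each call was lost when certain single arrays were left out, in 2 of 16 cases for Cd36 (without Het_HFD 3 or Het_HFD 4), 3 for Cyp3a16 (without Het_HFD 1, 2 or 3), 7 for Eci3, 10 for Sult3a1, 11 for Hao2 and 12 for Spink1 and for Vldlr, the gene of the very low density lipoprotein receptor, the fifth that rose. The highest adjusted p in those fits was 0.121, for Vldlr.

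Over both genotypes 3 of the 27 rose, beside 1.35% of all genes that were higher, and 0 fell, beside 0.512%. Without Het_control 2, 5 rose and 2 fell, with Hao2 and Eci3 added to those that rose and Sult3a1 (-0.93, limma adjusted p = 0.0404) and Spink1 (-0.17, adjusted p = 0.0204) as those that fell. Cyp3a16 rose by 1.22 (SE 0.22, limma adjusted p = 0.0137) and passed with each array left out, while Cd36 (0.81) and Cyp2b13 (0.35) were each lost in 10 of 16 such fits.

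In wild type 0 of 28 male-biased and 0 of 27 female-biased genes were called by diet, beside 0% of all genes. At an unadjusted p under 0.05 there were 5 and 3, beside 6.43% of all genes. The smallest p of the female-biased list were those of Cyp3a16, at 0.85 (SE 0.31, limma adjusted p = 0.610), and Cyp2b13, at 0.27 (adjusted p = 0.663). In the male-biased list they were those of the transporter gene Slc22a7, at 0.54 (adjusted p = 0.428), and Cyp4a12a, at -0.30 (adjusted p = 0.600). By genotype on control diet 24 of the 27 female-biased genes were lower in value in heterozygotes, and 0 were called, beside 0% of all genes. Their median was -0.17, against 0.04 over all genes. Without Het_control 2, 20 of 27 were lower, with a median of -0.08 against 0.01 over all genes. An unadjusted p under 0.05 was found for 8 of the 27, beside 15.7% of all genes, or for 4, beside 8.03%, without Het_control 2. Cyp17a1 read -0.43 and Cyp3a16 -1.17 there (limma adjusted p = 0.279 each). In the same comparison 8 of 8 endothelial markers were lower in value in heterozygotes (median -0.34, or -0.22 without Het_control 2), and 6 of 8 macrophage markers (median -0.35, or 7 of 8 and -0.25), with 0 called in either list. Macrophage markers moved in the same comparison as the calls in heterozygotes: 5 of 8 rose, beside 1.5% of all genes, or 3 without Het_control 2, and their average level was 9.73 to 10.19 on control diet and 10.34 to 10.69 on high-fat diet, against 10.15 to 10.30 and 9.93 to 10.54 in wild type. Hepatocyte markers averaged 13.41 to 13.62 and 13.55 to 13.63 in these groups. Of 8 stellate cell markers 1 rose, and of 8 endothelial markers 0 did. The part of these cells in the differences above was not tested.

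**Figure D5:**
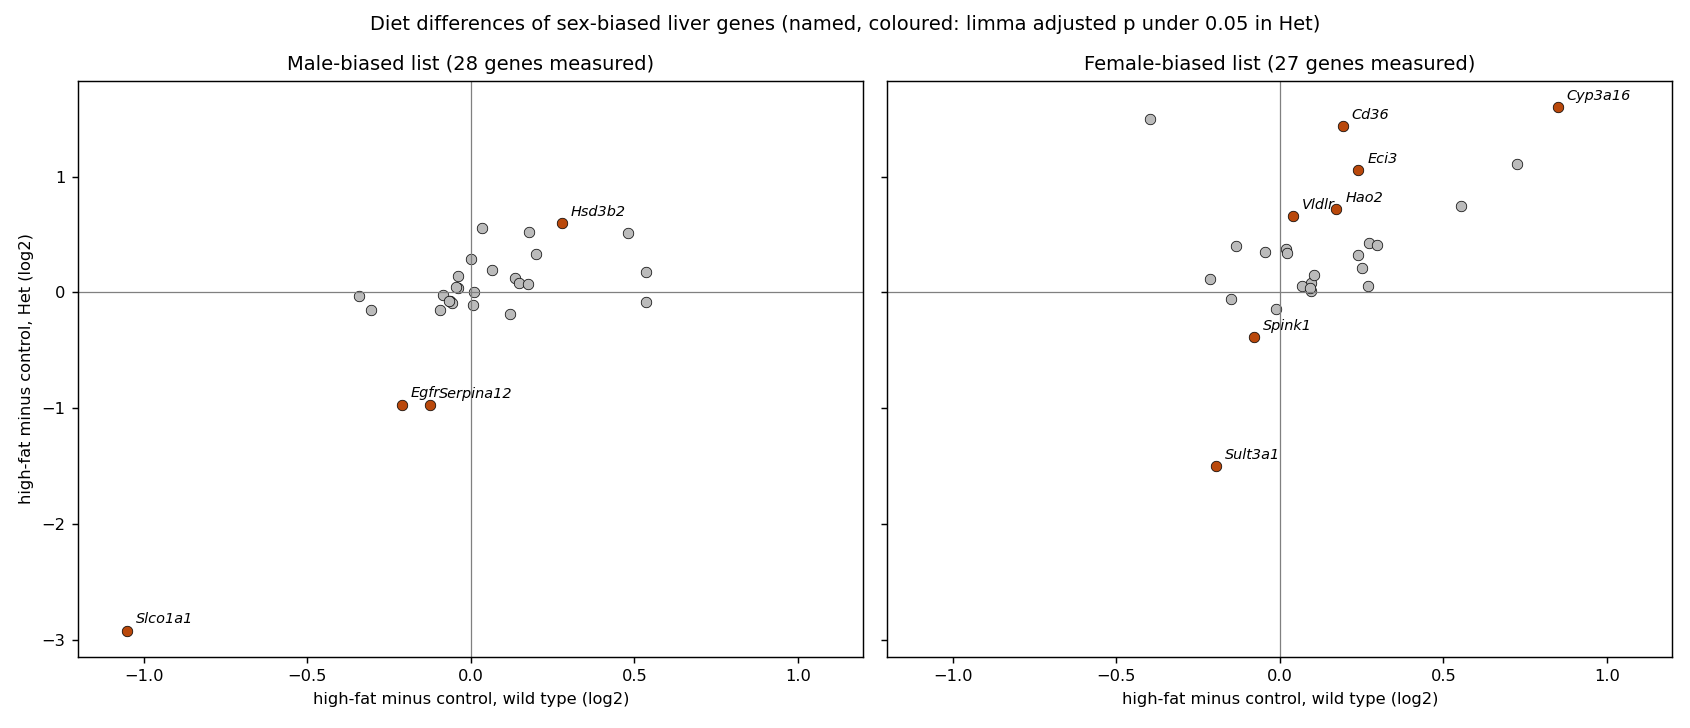
Diet differences on the log2 scale in wild type (horizontal axis) and heterozygotes (vertical axis) of 28 male-biased genes (left) and 27 female-biased genes (right); coloured, named points passed at an adjusted p under 0.05 in heterozygotes. Slco1a1 lies lowest at -2.92, and 5 of the 7 named female-biased genes lie above 0.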

How the data were processed

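The authors deposited log2 expression values, 1 per probe set. The submitters' processing notes name RMA and the program Affymetrix Expression Console, without versions. RMA makes the arrays' distributions alike, so a shift shared by most genes would not be seen. Of 35556 probe sets, 21789 carried 1 gene symbol in the platform annotation, 1621 several and 12146 none, and the last 2 kinds were left out of the tests. Symbols were updated through the Entrez number with RefSeq (GRCm38.p6), which matched 19856 of 19938 genes.

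All 16 arrays entered 1 fit with a mean per group (limma 3.58.1, R 4.3.3, lmFit and eBayes), with p-values adjusted over the 19938 genes by the Benjamini-Hochberg method; the method was tested on simulated data. Each p measures the spread between animals taken as independent. Correlations used deviations from group means, with 100000 two-sided permutations within groups (SciPy 1.17.1). With 4 arrays a group, precision is limited by their number. The 10 genes and the lists were chosen with earlier results of these data known. In each list discussed, called genes are named, up to 4 by size in each direction, or the 2 with the smallest p where none was called. Vldlr, Hsd3b3 and single animals were picked once their values were known. Alternatives left out each array, changed the moderation, weights, normalization, filter and probe sets, or used the number in the sample titles as a random block. Replicate numbers were assigned in record order and carry no pairing.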

Additional observations from a re-analysis of the deposited data

Results flagged for a closer look

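In 5 of the 40 sets of 4 animals (10 genes in 4 groups), 1 animal's gap to the nearest other was a larger share of the set's range than Dixon's 95% critical value, which chance exceeds in about 1 in 20 sets. Cish held 2 of them: WT_HFD 1, at 9.65 below the other 3 of its group, and Het_HFD 4, at 9.26 below its group. Cux2 in Het_HFD 1, at 10.27, and Stat5a in Het_HFD 3, at 9.67, lay above their groups. Ghr in WT_HFD 4, at 12.99, lay below 3 readings that agreed closely, within a group range of 0.06.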

How the results depend on the processing

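No paired analysis was possible because the replicate numbers were given in the order of the records. The sample titles hold a further number of unexplained meaning, shared by WT_control 2 and 4, Het_control 2 and 3, WT_HFD 3 and 4, Het_HFD 2 and 3, and, across diets, WT_control 1 and WT_HFD 2, which was tried only as a random block. Of the 8 tested genes, 0 were called in any of the 7 contrasts with any 1 array left out, and calls arose under 1 alternative only, the title number as a random block (estimated correlation -0.372): 2 by diet in heterozygotes, Ghr (0.18) and Stat5a (0.20), and 2 over both genotypes, Stat5a (0.15) and Stat5b (0.17). That block gave 6938 calls over all genes by diet in heterozygotes, against 442 in the fit without it, 3446 without Het_control 4, 1067 with array weights, 174 without Het_control 2, 45 without Het_HFD 3 and 7 with only the 2 groups fitted; over both genotypes it gave 3703 against 371, and array weights 2105. In wild type array weights gave 219 against 0. The cause was not tested. The filter left out Hsd3b5 itself, which has no value there.

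Differences close to 0 changed sign. With array weights, Ghr read 0.016 by diet in wild type, Igf1 -0.035 by diet in heterozygotes, 0.013 by genotype on control diet and -0.0012 by diet over both genotypes, Stat5a -0.014, Stat5b 0.055 and Socs2 0.065 by genotype on control diet, and Stat5b 0.00068 by genotype over both diets. After a repeated quantile normalization Igf1 read -0.068, 0.040 and -0.029 in the same 3 contrasts and 0.0021 by genotype over both diets, Igfals -0.11 by diet in heterozygotes, and Stat5b 0.065 and Socs2 0.093 by genotype on control diet. With the title number as a block Igf1 read 0.034 for the interaction and Stat5a -0.00095 by genotype on control diet, and with probe sets averaged Socs2 read 0.0031 there. With 1 array left out, ranges crossed 0 by diet in wild type for Ghr (-0.030 to 0.029) and Socs2 (-0.14 to 0.30), and by diet in heterozygotes for Igf1 (-0.046 to 0.094), Igfals (-0.038 to 0.080) and Bcl6 (-0.55 to 0.034). By diet over both genotypes the range of Igf1 was -0.00074 to 0.069, and by genotype over both diets that of Igfals was -0.0099 to 0.066. By genotype on control diet they were -0.11 to 0.030 for Igf1, -0.047 to 0.083 for Stat5a, -0.077 to 0.044 for Stat5b and -0.15 to 0.11 for Socs2. For the interaction they were -0.091 to 0.049 for Igf1, -0.12 to 0.0023 for Stat5b, -0.22 to 0.056 for Cish and -0.40 to 0.19 for Bcl6.

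No correlation of the 8 pairs passed under any alternative. That of Bcl6 and Hsd3b5 was 0.076 uncentred and -0.29 to 0.20 with 1 array left out, and that of Bcl6 and Cux2 -0.12 after a repeated quantile normalization and -0.037 to 0.16. Hsd3b5 and Cux2 gave -0.066 uncentred, -0.090 without the 2 farthest arrays and -0.068 to 0.34, and Socs2 and Hsd3b5 -0.23 without the 2 farthest arrays and -0.15 to 0.43.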
